A study of Homo sapiens with 94 samples.

Results

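AP-1 and EGR transcription factors are the nuclear end of growth factor and stress signaling, and 10 of their genes were followed here through RNA-seq of mesothelioma xenografts that had received a TEAD inhibitor. The genes were FOS, FOSB, FOSL1, FOSL2, JUN, JUNB, JUND, ATF3, EGR1 and EGR3, taken by symbol from a table of 20239 gene IDs, and each had 1 entry. AP-1 is a dimer of a FOS family protein with a JUN family protein, or of JUN proteins with each other, that binds DNA at TPA response elements. EGR1 and EGR3 are zinc finger factors. FOS, FOSB, JUNB, EGR1, EGR3 and ATF3 are immediate early genes, which are transcribed within minutes of a stimulus without new protein synthesis, whereas FOSL1 and FOSL2 respond more slowly to sustained MAP kinase signaling. AP-1 sites often lie beside TEAD sites in the enhancers that YAP1 and TAZ use. The comparison with a TEAD inhibitor reads only the RNA levels of these genes, and binding at enhancers was not measured.

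The tumors were grown under the skin of female CB17/lcr-Prkdc scid/lcrIcoCrl mice, aged 6 to 8 weeks by the methods of the study, from the established human pleural mesothelioma line NCI-H226, which has lost NF2 by deletion. All groups therefore shared the NF2 deletion and a host without T and B cells, and rest on a single cell line. A mouse received 1 oral dose of K-975, a covalent TEAD inhibitor, at 30, 100 or 200 mg/kg, or the vehicle (EtOH/Solutol/glucose pH3), or was left untreated. Vehicle and 200 mg/kg were given in 20 mL/kg and the other doses in 10 mL/kg, so that dose and volume changed together between 100 and 200 mg/kg. Volume also differed between vehicle and the doses of 30 and 100 mg/kg. In those comparisons, and in trends over the doses, dose and volume cannot be told apart. The 94 libraries came from 3 studies, at 1 h, 3-6 h and 24 h after the dose, with 5 untreated tumors in each. At 1 h and 24 h a treatment was a single cage group of 5 tumors (4 for vehicle at 24 h), and cage and treatment cannot be told apart. The 3-6 h study had 2 cage groups, or 10 tumors, per treatment with vehicle or K-975, and the hour of sampling of a cage group is not in the labels.

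The measure was FPKM, fragments scaled to transcript length and to the mapped total of the library, which holds no read counts, so the depth of a library is unknown. In 91 libraries 11344 to 11665 genes reached an FPKM of at least 1. The other 3 had 702 (30 mg/kg, 24 h, replicate 1), 7196 (100 mg/kg, 24 h, replicate 5) and 8531 (200 mg/kg, 1 h, replicate 1), are called shallow, and were left out of the tests, in a decision taken with these values known. The mesothelial markers CALB2, MSLN and WT1 were present in all 91 libraries, at medians of 612, 255 and 29.1 FPKM. Another mesothelial marker, UPK3B, had a lowest value of 0. CD3E, LYZ and PECAM1, markers of T cells, myeloid cells and endothelium, had medians of 0. The medians of CD68 and COL1A1 were 139 and 560 FPKM. Other immune and endothelial markers also had medians above 0. Among them, KDR was at 63.9 FPKM (lowest 23.1), ITGAM at 2.59, CD14 at 1.37, CDH5 at 1.09 and VWF at 0.989. Whether part of the signal came from mouse cells was not tested, and a step that removes mouse reads is not given in the sources used here. In such bulk samples fewer cells of a type and less RNA per cell cannot be told apart.

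Among the 10 genes, FOSL2 and FOSL1 were the most abundant in these tumors, and FOS, EGR1, FOSB and EGR3 were the lowest. Across the 91 libraries, the median level was 129 FPKM for FOSL2 (lowest 97.9, highest 169) and 67.9 FPKM for FOSL1 (lowest 18.3, highest 190). The JUN family followed, with 45.4 for JUND, 28.7 for JUN and 24.0 for JUNB. The stress-induced repressor ATF3 stood at 15.6, FOS at 5.93 (lowest 1.98, highest 23.0), EGR1 at 4.60, FOSB at 3.15 and EGR3 at 0.726 FPKM. A value of 0 was listed for EGR3 in 5 of these libraries and for no other member. The order of neighbors was not fixed in every tumor. FOSL2 exceeded FOSL1 in 79 of 91 libraries, FOSL1 exceeded JUND in 65, FOS exceeded EGR1 in 68, and ATF3 exceeded FOS in 90. FPKM corrects for length, but the libraries were enriched with capture probes, and the part of capture in the order was not tested.

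How much a gene varied between tumors of the same group separated the 10 genes further. The SD of log2(FPKM + 1) around the group means was 0.67 for FOSL1, which exceeded that of 96.8% of the 13036 genes tested, 0.62 for FOSB (95.2%) and 0.56 for FOS (92.4%). FOSL2 had an SD of 0.13 and exceeded only 6.81% of genes, and JUND (0.30) lay beside the median of all genes (0.29). The 2 most abundant members were thus among the most and the least variable genes of these tumors.

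Sequence upstream of the start site is shown for EGR1, JUND and CCN2 (CTGF), each of which holds a match to a motif listed below. Whether these sites bear on the comparisons that follow was not tested. The windows are the 250 bases before the RefSeq start (GRCh38.p14), printed 5′ to 3′ on the gene's strand, at chr5:138465229-138465478 (plus strand) for EGR1, chr19:18281623-18281872 (minus strand) for JUND and chr6:131951373-131951622 (minus strand) for CCN2. Capitals mark matches, on either strand, to the CArG box bound by SRF, the AP-1 site TGACTCA, the CRE TGACGTCA, the TEAD core GGAATG and the EGR site GCGGGGGCG.
EGR1: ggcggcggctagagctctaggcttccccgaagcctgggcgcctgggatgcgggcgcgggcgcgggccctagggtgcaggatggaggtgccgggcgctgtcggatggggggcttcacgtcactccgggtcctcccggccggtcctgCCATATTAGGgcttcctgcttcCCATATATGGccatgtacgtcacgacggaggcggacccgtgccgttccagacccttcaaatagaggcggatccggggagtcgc
JUND: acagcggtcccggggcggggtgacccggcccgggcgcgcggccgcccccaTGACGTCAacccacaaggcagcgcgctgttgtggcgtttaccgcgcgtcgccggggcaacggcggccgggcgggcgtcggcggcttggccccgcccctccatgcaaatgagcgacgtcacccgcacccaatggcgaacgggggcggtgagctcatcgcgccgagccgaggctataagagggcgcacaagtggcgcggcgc
CCN2: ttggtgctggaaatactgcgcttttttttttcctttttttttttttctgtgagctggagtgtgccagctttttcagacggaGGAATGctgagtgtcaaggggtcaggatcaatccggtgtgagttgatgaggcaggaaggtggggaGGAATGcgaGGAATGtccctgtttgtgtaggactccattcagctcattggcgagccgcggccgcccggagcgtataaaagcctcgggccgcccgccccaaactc

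Counted from -1 at the base before the start, EGR1 held CArG boxes at -105 to -96 and -83 to -74, JUND the CRE at -200 to -193, and CCN2 the letters GGAATG at -169 to -164, -104 to -99 and -95 to -90. Of 35116 RefSeq windows of this length, 1.16% held a CArG box, 1.65% the CRE, 4.20% TGACTCA, 11.9% GGAATG and 4.72% GCGGGGGCG. Among 8 members whose windows were searched, 1 held a CArG box, 1 the CRE, and no match to the other motifs was found, which says only that these letters are not in this stretch.

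After K-975, none of the 10 genes passed the test at any dose or time. Each dose was compared with vehicle by limma on log2(FPKM + 1), fitted over all groups and adjusted over 13036 genes with a threshold of 0.05. At 1 h, when immediate early genes would respond first to a stimulus, the share of all genes called was 0% for 200 mg/kg, 0.00767% for 100 mg/kg and 0% for 30 mg/kg. The number of members called was 0 of 10 at each dose, and 0 also had an unadjusted p under 0.05. FOS lay at 3.26, 3.44, 4.53, 3.55 and 7.14 FPKM in the vehicle tumors and at 6.08, 7.07, 6.64 and 5.79 in the 200 mg/kg tumors (6.65 in the shallow library). The 200 mg/kg values lay close together, inside the range of vehicle but above every vehicle value except 7.14. The log2 difference was 0.50 ± 0.37 (SE, limma adjusted p = 1). At 200 mg/kg the estimate was positive for 10 of 10 members (median 0.17, against -0.0018 over all genes tested), at 100 mg/kg for 6 of 10 (median 0.09) and at 30 mg/kg for 2 of 10 (median -0.10). The 3 doses were set against the same vehicle tumors, which themselves had estimates below the untreated tumors for 8 of 10 members. Members also co-varied between tumors of a group (median correlation 0.30 over 45 pairs), so that their signs are not independent of each other.

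At 3-6 h, the share of all genes called was 0.069% for 200 mg/kg, 0.43% for 100 mg/kg and 0.0153% for 30 mg/kg, and again 0 of 10 members were called. JUN, the best known AP-1 subunit (chr1:58780787-58784327), had the smallest unadjusted p of the members at 200 mg/kg. Its level was 20.1, 47.7, 29.8, 22.7 and 14.5 FPKM in cage group 4 and 25.8, 29.3, 26.0, 20.1 and 31.7 in cage group 5. In the vehicle tumors it was 27.0, 20.2, 31.1, 35.5 and 31.3 in cage group 2 and 29.8, 44.9, 39.5, 36.4 and 74.1 in cage group 3. The treated tumors overlapped the vehicle tumors, with 3 of 10 below all vehicle values, and the vehicle cage groups themselves lay apart. The log2 difference of JUN was -0.44 ± 0.16 (SE, limma adjusted p = 0.399), and it was -0.15 against cage group 2 alone and -0.72 against cage group 3 alone. JUND had an estimate of 0.27 ± 0.13 at 30 mg/kg (limma adjusted p = 0.661). No other member had an unadjusted p under 0.05 in these 3 comparisons.

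Single cage groups of 3-6 h were also set against the 10 vehicle tumors. The share of all genes called was 0.00767% for cage group 4, 0.276% for cage group 5, 0% for cage group 6, 1.33% for cage group 7, 0% for cage group 8 and 0.0307% for cage group 9, and 0 of 10 members were called in each. JUN was at -0.48 ± 0.19 in cage group 4 and -0.40 ± 0.19 in cage group 5 (log2, SE), both against the same vehicle tumors. FOSL2, at 107 to 169 FPKM in all 10 tumors of 200 mg/kg, was at -0.17 ± 0.07 in cage group 5 (limma adjusted p = 0.391). In cage group 9 (30 mg/kg) JUND was at 0.41 ± 0.16 and ATF3 at 0.51 ± 0.25, with limma adjusted p of 0.372 and 0.524. Of 4 TEAD target genes, 4 were called lower in cage group 5 and 3 in cage group 7. Their median log2 differences there were -0.79 and -0.73. Other list genes called in a single cage group included CCND1 (cyclin D1), an AP-1 target that fell by 0.37 ± 0.09 in cage group 7 (limma adjusted p = 0.0126). They also included the mesothelial marker WT1, which rose by 0.48 ± 0.10 in cage group 9 (limma adjusted p = 0.0252).

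At 24 h, FOSL1 had the lowest estimate of the members at each dose, followed by JUN at 200 and 100 mg/kg and by EGR1 at 30 mg/kg, and none passed the threshold. The share of all genes called was 7.41% for 200 mg/kg, 1.12% for 100 mg/kg and 0.0384% for 30 mg/kg, with 0 of 10 members called at each dose and 2, 3 and 1 with an unadjusted p under 0.05. That lower bar was passed by 21.9%, 14.1% and 10% of all genes. Estimates were negative for 9 of 10 members at each dose, with medians of -0.30, -0.28 and -0.36 on the log2 scale, against medians of 0.037, 0.029 and 0.019 over all genes tested. Because members co-varied between tumors, these signs are not independent of each other. The 3 doses share the same 4 vehicle tumors, so that a high vehicle tumor enters all 3. Tumors that lay below all vehicle tumors are named for single genes in what follows. The share of all genes that separated in this way was not computed.

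FOSL1 (FRA1, chr11:65892048-65900573) is a FOS family protein without a transactivation domain of its own that partners JUN proteins in invasive carcinoma and mesothelioma cells. In the 24 h vehicle tumors it was at 144, 137, 132 and 96.2 FPKM, and in untreated tumors at 173, 85.4, 116, 141 and 190. With 200 mg/kg it was at 18.3, 154, 44.4, 64.1 and 46.8 FPKM. Replicate 2 exceeded all vehicle tumors and the other 4 lay below all of them. The log2 difference was -1.26 ± 0.43 (SE, limma adjusted p = 0.0591), rank 1077 of 13036 genes by p. Over 16 alternatives the adjusted p ran from 0.00363 to 1, and 3 of them passed the threshold. One of these was the fit without replicate 2 of 200 mg/kg, with a difference of -1.64 and an adjusted p of 0.00756. The others kept replicate 2 and were array weights over all 94 libraries (-1.46, adjusted p = 0.00363) and untreated tumors in place of vehicle (-1.36, adjusted p = 0.0255). Whether FOSL1 was called thus varied with that tumor, with the weights and with the control.

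FOSL1 at the lower doses showed estimates of similar size. At 100 mg/kg it was at 72.2, 56.9, 29.8 and 125 FPKM (75.9 in the shallow library), with a log2 difference of -0.995 ± 0.46 (SE, limma adjusted p = 0.297) and 3 of 4 tumors below all vehicle tumors. At 30 mg/kg it was at 42.7, 89.8, 54.9 and 73.8 FPKM (0 in the shallow library), all 4 below the lowest vehicle tumor, with -0.99 ± 0.46 (limma adjusted p = 0.447). The estimates at the 3 doses differed by less than their SE. How many genes reached an FPKM of 1 also moved with the groups at 24 h. The count was 11356 to 11422 in the vehicle tumors and 11448 to 11613 in the treated tumors apart from replicate 2 of 200 mg/kg, the tumor with the highest FOSL1 of its group, at 11424 (shallow libraries left out). Its part in the estimates was not tested. The trend over vehicle, 30, 100 and 200 mg/kg, scored as equal steps, called 7.11% of all genes and 0 of 10 members at 24 h. In the same trend FOSL1 had a slope of -0.38 ± 0.14 for each step (limma adjusted p = 0.0801).

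JUN was at 39.7, 39.7, 33.2 and 35.0 FPKM in the 24 h vehicle tumors and at 12.4, 29.8, 25.1, 32.1 and 24.8 with 200 mg/kg. The 5 treated values were lower than each of the 4 vehicle values and overlapped the untreated tumors, which were at 47.7, 38.5, 31.1, 51.4 and 48.5. The log2 difference was -0.61 ± 0.24 (SE, limma adjusted p = 0.0959). Over 16 alternatives the adjusted p ran from 0.0122 to 1, and it passed with untreated tumors in place of vehicle (-0.82, adjusted p = 0.0122) and with array weights over all 94 libraries (-0.64, adjusted p = 0.0293). At 100 mg/kg JUN was at 26.7, 22.4, 17.4 and 31.5 FPKM (24.2 in the shallow library), all 4 below vehicle, with -0.60 ± 0.25 (limma adjusted p = 0.236). At 30 mg/kg the estimate was -0.37 ± 0.25 (limma adjusted p = 0.635). The trend of JUN was -0.21 ± 0.07 for each step (limma adjusted p = 0.0780).

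**Figure D1:**
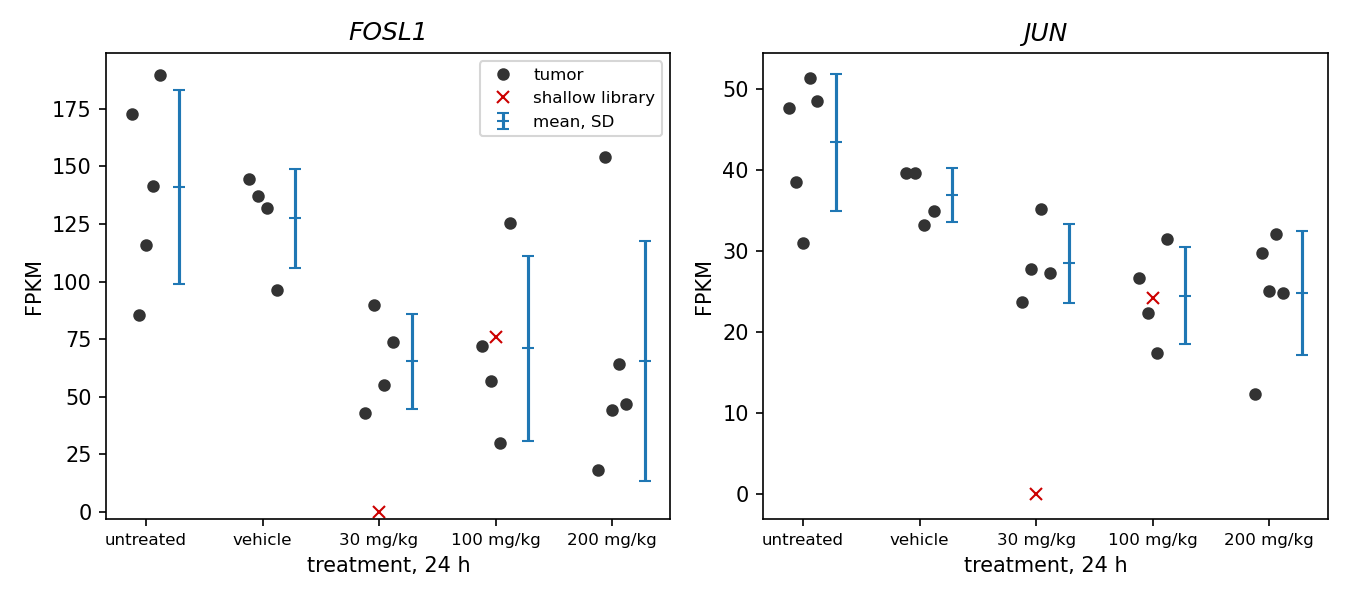
FOSL1 and JUN in each tumor at 24 h (y axis: FPKM; x axis: treatment), with the mean and SD of the libraries that were not shallow in blue and shallow libraries as red crosses. For FOSL1, replicate 2 of 200 mg/kg stands at 154 FPKM, above the other 4, which lie between 18.3 and 64.1.

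The other members also missed the threshold at 24 h. JUNB, with JUN the main AP-1 partner of FOS, was at -0.48 ± 0.28, -0.45 ± 0.30 and -0.46 ± 0.30 (log2, SE) at the high, middle and low dose, and 4 of 5 tumors of 200 mg/kg lay below vehicle. EGR1 was at -0.58 ± 0.34, -0.07 ± 0.35 and -0.65 ± 0.35, beyond the estimate of JUN at the low dose. EGR3 was at -0.23, -0.0074 and -0.59, FOSB at -0.38, 0.028 and -0.35 and ATF3 at -0.098, -0.33 and -0.27 in the same order, each with an SE between 0.28 and 0.43. FOSL2 was at -0.11 ± 0.09, -0.24 ± 0.10 and -0.02 ± 0.10, and the 4 tumors of 100 mg/kg, at 111 to 120 FPKM, lay below all vehicle tumors, at 127 to 148 (limma adjusted p = 0.22). FOS was at -0.23 ± 0.37, -0.34 ± 0.39 and -0.15 ± 0.39, and its 200 mg/kg tumors ran from 2.77 to 15.2 FPKM, on both sides of vehicle (4.53 to 9.95). JUND, which many resting cells express, had estimates of 0.14 ± 0.19, -0.09 ± 0.20 and 0.05 ± 0.20.

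TEAD target genes measured in the same tumors were called in some of the comparisons. Of 4 such genes, 2 were called at 200 mg/kg at 24 h, 3 at 200 mg/kg and 3 at 100 mg/kg at 3-6 h, and 0 at 100 and 30 mg/kg at 24 h, at 30 mg/kg at 3-6 h and at each dose at 1 h. In the trend with dose, 4 were called lower at 24 h and 3 at 3-6 h, beside 7.11% and 0.414% of all genes. CCN1 (CYR61), a matricellular protein and classical YAP1-TEAD target, was at 268, 268, 263 and 196 FPKM with vehicle and at 71.9, 167, 94.9, 98.3 and 99.9 with 200 mg/kg at 24 h, and the groups did not overlap. It fell by 1.26 ± 0.20 on the log2 scale (SE, limma adjusted p = 1.23e-05), close to the estimate of FOSL1 and with a smaller SE. CCN2 fell by 1.44 ± 0.21 (limma adjusted p = 2.11e-06). Both calls were lost in an unweighted fit of all 94 libraries (adjusted p = 0.153 and 0.147). Replicate 2, which had the highest FOSL1 of the treated tumors, also had their highest CCN1. At 3-6 h CCN1, CCN2 and the angiomotin family gene AMOTL2 fell at 200 mg/kg, by 0.72, 0.63 and 0.53 (limma adjusted p = 0.00223, 0.0338 and 0.00177), and CCN2 passed in 13 of 29 alternatives.

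Genes around AP-1 were read from lists. At 200 mg/kg and 24 h, 2 of 17 upstream kinases and SRF partners, 3 of 18 other immediate early genes and 1 of 11 AP-1 target genes were called, beside 7.41% of all genes. MAP2K1, the MAP kinase kinase MEK1, fell by 0.51 ± 0.13 (limma adjusted p = 0.00802), and MRTFA, an actin-regulated SRF coactivator, rose by 0.39 ± 0.11 (adjusted p = 0.0212). MAP2K1 also fell at 100 mg/kg, by 0.52 ± 0.14 (limma adjusted p = 0.0361). Of the other immediate early genes, SGK1 and GADD45B fell, by 0.88 ± 0.26 and 0.73 ± 0.21 (limma adjusted p = 0.0264 and 0.0233), and KLF10 rose by 0.39 ± 0.13 (adjusted p = 0.0447). In the transcription signature of the study, SGK1 and GADD45B are listed as rising with YAP1-TEAD activity, and KLF10 as falling with it. FOS is listed there on the same side as KLF10. The AP-1 target called was PLAUR, the urokinase receptor, which fell by 0.72 ± 0.22 (limma adjusted p = 0.0328). Its level was 75.9 to 104 FPKM in 4 of the treated tumors and 181 in replicate 2, against 160 to 175 with vehicle. None of 11 other AP-1 and EGR family genes and 7 stress partners of ATF3 was called, with 3 and 1 at an unadjusted p under 0.05, against 21.9% of all genes. Of 7 mesothelial markers, 3 had a positive and 4 a negative estimate (median -0.027), and 2 were called, MSLN and CALB2, which rose by 0.40 and 0.39 (limma adjusted p = 0.0414 and 0.0198). At 100 and 30 mg/kg the 7 estimates were positive and 0 were called. The summed level of the 7 mesothelial markers was 2361 to 3130 FPKM with 200 mg/kg and 2138 to 2264 with vehicle at 24 h. Its part in the results was not tested.

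Vehicle tumors were compared with untreated tumors to read the effect of dosing itself. For vehicle against untreated tumors, the share of all genes called was 0% at 1 h, 0% at 3-6 h and 0% at 24 h by limma, with 0 of 10 members called and 0 of 10 at an unadjusted p under 0.05 in each study. The trend with dose called 0% of genes at 1 h and 0.414% at 3-6 h, and 0 of 10 members in both. In that trend JUN at 3-6 h was at -0.13 ± 0.05 for each step (limma adjusted p = 0.346). The effect of 200 mg/kg was also compared between studies. The share of all genes called was 0.583% for 24 h minus 1 h, 1.72% for 24 h minus 3-6 h and 0% for 3-6 h minus 1 h, and 0 of 10 members were called. The effect on FOSL1 was -1.40 ± 0.61 between 24 h and 1 h and -1.18 ± 0.52 between 24 h and 3-6 h (log2, SE, limma adjusted p = 0.302 and 0.230). CCN1 and CCN2 differed between 24 h and 1 h, by -1.28 ± 0.28 and -1.65 ± 0.30 (limma adjusted p = 0.0140 and 0.00101). FOSL1 in untreated tumors had a median of 65.9 FPKM at 1 h, 52.7 at 3-6 h and 141 at 24 h, and study and time cannot be told apart.

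Tumors of the same group differed from each other in these genes, and the members moved together in part. Residuals from the group means were correlated over 91 tumors for 45 pairs of members, with p-values from 100000 permutations within groups (two-sided, 1e-05 the smallest they can give) and adjusted over the 45 pairs, where a p of 1e-05 for r became 3.75e-05. The median r was 0.30, against 0.0037 over all pairs of genes tested, and 51.1% of member pairs had an r over 0.3, against 2.58% of all pairs. For 22 pairs both Pearson's r and Spearman's rho passed 0.05 after adjustment. All 22 were positive and had a positive r within each of the 3 studies.

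FOSL1, JUN, JUNB, ATF3 and EGR1 formed a set in which each of the 10 pairs passed, with r between 0.48 and 0.85. JUN and JUNB, whose products both pair with FOS proteins, were closest, with r = 0.85 and rho = 0.78 (permutation p = 1e-05 for both). Their r was 0.64 at 1 h, 0.90 at 3-6 h and 0.78 at 24 h, and 0.84 without the 2 tumors farthest from the median of JUN. FOSL1 and JUN had r = 0.63 and rho = 0.69 (permutation p = 1e-05 for both), with 0.75, 0.56 and 0.78 within the studies and 0.60 without the 2 farthest tumors. FOSL1 and EGR1 had r = 0.65 and rho = 0.62 (permutation p = 1e-05 for both), with 0.71, 0.71 and 0.49 within the studies and 0.68 without the 2 farthest tumors. FOSB passed with each of these 5 genes as well, so that the set is not closed without it. Its r was highest with EGR1 (r = 0.58, rho = 0.58, permutation p = 1e-05 for both) and ATF3 (r = 0.49, rho = 0.48, permutation p = 5e-05 and 6e-05). Without the 2 farthest tumors these r were 0.54 and 0.47. With FOSL1, JUNB and JUN the r of FOSB was 0.42, 0.39 and 0.32 (permutation p = 0.00024, 0.00054 and 0.0053).

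FOSL2 and JUND stood apart from this set. FOSL2 passed in 2 of its 9 pairs, with FOS (r = 0.43, rho = 0.32, permutation p = 0.00052 and 0.0058, adjusted 0.00135 and 0.0131) and with JUND (r = 0.34, rho = 0.32, permutation p = 0.00538 and 0.00642, adjusted 0.0115 and 0.0138). Within the 24 h study these r were 0.042 and 0.050. JUND passed in 1 of 9 pairs. FOSL1 against JUND had r = -0.18 and FOSL1 against FOSL2 had r = -0.095, both short of the threshold (permutation p = 0.171 and 0.43, before adjustment). With the 3 shallow libraries included these r were 0.55 and 0.66. The count of genes that reached an FPKM of 1, used here for depth, also moved with some members. Its r with the residuals was -0.54 for FOSL1, -0.42 for JUN, -0.32 for JUNB, -0.31 for EGR1, -0.027 for FOS and 0.16 for FOSL2, and its part in the correlations was not tested.

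**Figure D2:**
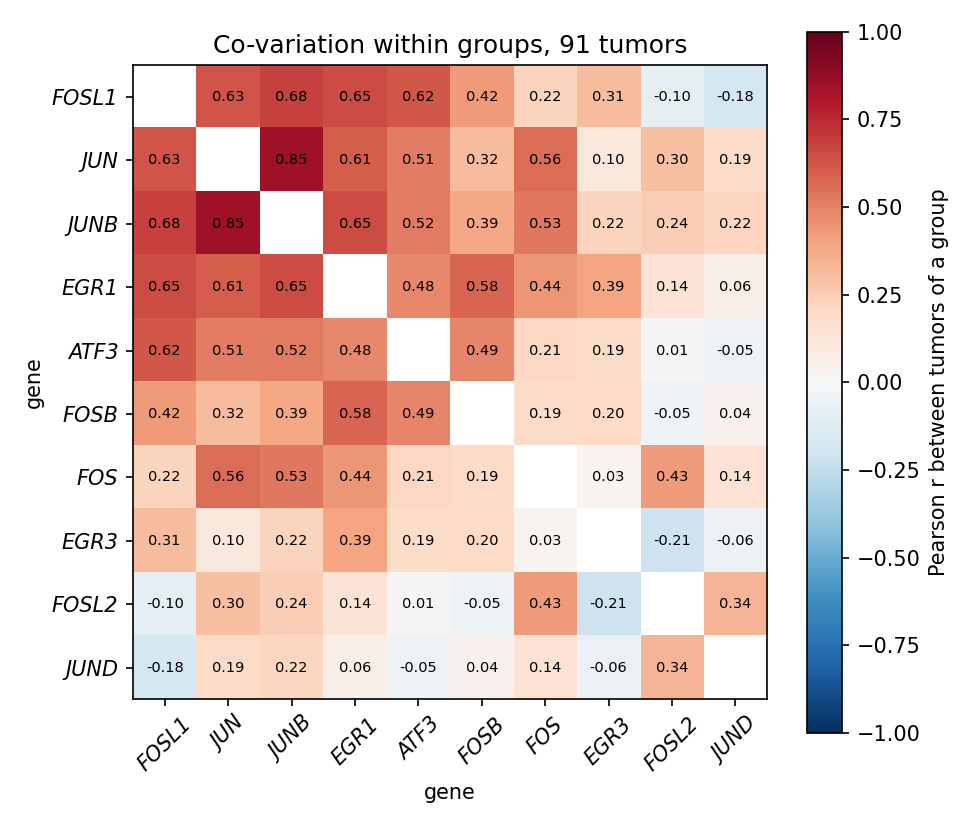
Pearson r between each pair of genes (both axes: gene) after subtraction of group means, over 91 tumors, colored from blue (-1) to red (1). The block of FOSL1, JUN, JUNB, EGR1 and ATF3 lies between 0.48 and 0.85, while JUND and FOSL2 have r near 0 with FOSL1 and ATF3.

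The 5 genes most like FOSL1 between tumors, chosen as the highest r of 13035 genes, had higher r than any member. They were HK1, the hexokinase of the first step of glycolysis (r = 0.91), AKR1B1, the aldose reductase (0.91), ETS1, a transcription factor downstream of RAS signaling (0.90), NT5E, the ecto-5′-nucleotidase CD73 (0.90), and CCL20, a chemokine (0.89), with rho from 0.87 to 0.91 over 91 tumors. These r lay between 0.88 and 0.90 without the 2 tumors farthest from the median of FOSL1. The nearest member, JUNB (r = 0.68), had rank 150, EGR1 rank 209, JUN rank 253 and ATF3 rank 265, while FOS (0.22) had rank 2528. The AP-1 target genes PLAUR and MMP1, a collagenase, had r of 0.88 and 0.68 with FOSL1 (rho 0.88 and 0.68, permutation p = 1e-05 for all), and CCN1 had r = 0.78 (rho 0.79, permutation p = 1e-05 for both). Adjusted over the 10 relations to genes outside the members that were computed, these p were 2.5e-05 for r. Their r without the 2 farthest tumors was 0.87, 0.66 and 0.75. CCN1 kept this relation to FOSL1 within each study, with r of 0.82, 0.67 and 0.94, but r fell to 0.25 over all 94 libraries. The relation of CCN2 to FOSL1 was weaker, with r = 0.39 and rho = 0.28 (permutation p = 0.00158 and 0.0193). Its r was 0.47, 0.20 and 0.70 within the studies and 0.68 over all 94 libraries.

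Genes that moved with FOS (chr14:75278773-75282230) were tested across the whole table. With FOS as a covariate beside the group means, 58 of 13035 genes were associated with it by limma (0.445%), 50 positively and 8 negatively. Among the 9 other members 4 were called, all positive. The slope, in log2 units per log2 unit of FOS, was 0.41 ± 0.08 for JUNB, 0.40 ± 0.10 for EGR1, 0.36 ± 0.06 for JUN and 0.10 ± 0.03 for FOSL2 (SE, limma adjusted p = 0.000792, 0.0223, 0.000250 and 0.0446). FOSL1 was at 0.26 ± 0.13 (adjusted p = 0.521) and FOSB at 0.21 ± 0.13 (adjusted p = 0.626). The call of FOSL2 was lost with a pseudocount of 0.1, without the filter on low values and with quantile normalization (adjusted p = 0.0540, 0.0522 and 0.0990).

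Of 18 other immediate early genes, 4 were called with a positive slope on FOS and 1 with a negative slope. ZFP36, the mRNA decay protein tristetraprolin, had a slope of 0.68 ± 0.08 (limma adjusted p = 6.39e-09), IER3 0.59 ± 0.10, the MAP kinase phosphatase DUSP1 0.23 ± 0.06 and KLF10 0.18 ± 0.03 (adjusted p = 0.000330, 0.0355 and 0.000795). The call of DUSP1 was lost with a pseudocount of 0.1 and without the filter on low values (adjusted p = 0.0540 and 0.0506). KLF2, a factor induced by shear stress in endothelium, had a negative slope, -0.27 ± 0.05 (adjusted p = 0.000698), which turned to 0.47 when all 94 libraries were fitted. Of the stress partners of ATF3, PPP1R15A (GADD34), which restores translation after stress, was at 0.47 ± 0.08 (adjusted p = 0.000230), and of 3 heat shock genes tested DNAJB1 was at 0.23 ± 0.06 (adjusted p = 0.0481). With all 94 libraries, unweighted, the slope of PPP1R15A was 0.057 (limma adjusted p = 0.639), and DNAJB1 passed in 1 of 5 alternatives, with an adjusted p up to 0.0734. Calls numbered 0 among 17 upstream kinases and SRF partners, 11 AP-1 target genes, 4 TEAD targets and 7 mesothelial, 4 immune and 5 endothelial and fibroblast markers. For the TEAD target CCN2 the 2 tests differed. Its slope on FOS was -0.15 ± 0.06 (limma adjusted p = 0.384). Its r with FOS was -0.27 and rho -0.24 (permutation p = 0.0418 and 0.0442, adjusted 0.0464 and 0.0491). Within the studies this r was -0.44, -0.34 and 0.0096. The genes most like FOS over 91 tumors were ZFP36 (r = 0.71, rho = 0.63), ARRDC3, an arrestin-related adaptor (0.64, 0.51), DDIT4, a stress-induced inhibitor of mTORC1 (0.63, 0.56), BHLHE40, a basic helix-loop-helix repressor (0.63, 0.56), and BCL3, a nuclear IκB protein (0.58, 0.53). Without the 2 tumors farthest from the median of FOS their r ran from 0.52 to 0.65.

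**Figure D3:**
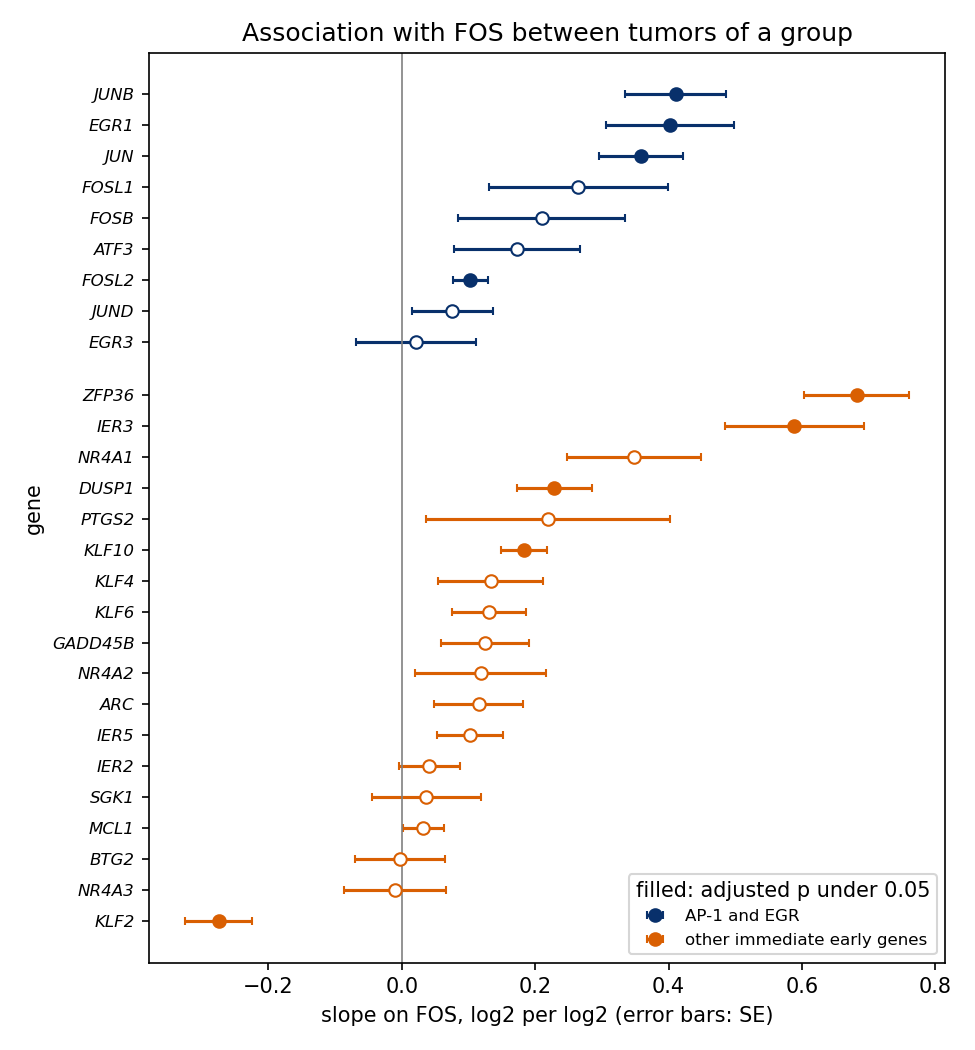
Slope on FOS between tumors of a group (x axis: log2 per log2, error bars: SE of the limma fit) for the other members (blue) and other immediate early genes (orange), with filled points past an adjusted p of 0.05. ZFP36 has the highest slope, 0.68, and KLF2 the lowest, -0.27.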

How the data were processed

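The authors deposited FPKM per gene, 1 column per library, without pooling. Libraries were enriched with capture probes, and the processing notes name STAR and GRCh38. The quantification tool is not given in the sources used here. FPKM hold no counts, so neither count tests nor sampling intervals were possible, and precision rests on the spread between tumors. Of 20555 entries, 316 repeats of an ID were dropped (the entry of highest mean was kept) and 32 blank cells read as 0. Groups (19) came from the labels. The tests used limma 3.58.1 in R 4.3.3 (lmFit, eBayes with trend and robust) on log2(FPKM + 1), which understates changes of low genes, for 91 libraries and genes that reached an FPKM of 1 in 4 or more of them (13036), with Benjamini-Hochberg adjustment, and were tested on simulated data. All 10 members passed this filter. Correlations used NumPy and SciPy. Replicates were numbered within groups. Members and lists were chosen with earlier results of these data known. Named are all members and the 5 genes of highest r with FOS and with FOSL1. Not all list genes past the threshold are named, and at most 5 per list and comparison. Promoter windows are RefSeq (GRCh38.p14), searched for 8 of 10 members (not for FOSL1 and EGR3). No member window from chromosome 8, where EGR3 lies, was used. Labels gave 3 untreated groups where the series description gives fewer. Alternatives covered libraries, weights, pseudocount, filter, normalization, controls and each library left out.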

Additional observations from a re-analysis of the deposited data

Results flagged for a closer look

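Single tumors stood apart by Dixon's criterion in 12 of 190 sets of values (10 genes in 19 groups), where chance gives about 9.5. FOSB was at 6.41 FPKM in 1 untreated tumor at 3-6 h, where the next was 2.08, and at 1.33 in 1 tumor of cage group 4 (200 mg/kg), where the next was 3.69. FOSL2 was high at 169 in cage group 4, and low at 103 in cage group 7 (100 mg/kg), at 104.8 in an untreated tumor at 24 h and at 105.2 with 200 mg/kg at 24 h. The last was replicate 2, the tumor with the highest FOSL1 of its group. JUN was lowest, at 12.4, in replicate 1 of 200 mg/kg at 24 h, where the next was 24.8. JUNB was low at 14.3 in cage group 8 (30 mg/kg), and JUND was low at 20.9 with 30 mg/kg at 1 h and high at 44.3 with vehicle at 24 h. EGR1 was low at 2.82 in vehicle cage group 3, and EGR3 at 0.335 with 100 mg/kg at 24 h. The effect of 200 mg/kg differed between 24 h and 1 h for CCN1 (-1.28 on the log2 scale, limma adjusted p = 0.0140) and CCN2 (-1.65, adjusted p = 0.00101), and for 0 of 10 members.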

How the results depend on the processing

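Log2 fold changes of FOSL1, FOSL2, JUN, JUND and ATF3 were repeated in the comparisons where their unadjusted p was under 0.05, and none of these 220 values turned its sign. Fold changes of the other members, and those at 1 h, were not repeated. Of 330 repeated counts and levels, 321 kept their value within the set limits. The exceptions rested on libraries, weights and controls, and the cause was not tested. With all 94 libraries, 5 members were called at 30 mg/kg and 24 h, among 2960 genes, where replicate 1 of that group has 702 genes at an FPKM of at least 1, and 7 members were associated with FOS, among 8757 genes. In that fit the slope of KLF2 on FOS reversed to 0.468, the r of FOS and CCN2 reversed from -0.27 to 0.15, and the median r of member pairs rose from 0.301 to 0.488. With array weights over 94 libraries, 2 members (FOSL1 and JUN) were called at 200 mg/kg and 24 h, among 1975 genes. In that fit 2 members were called in the trend at 24 h, among 1777 genes. The difference between 24 h and 3-6 h called 1 member (FOSL1), among 897 genes. With untreated tumors in place of vehicle at 24 h, 2 members were called at 200 mg/kg, among 1083 genes, and 1 at 100 mg/kg, among 260. Leaving out 1 library at a time gave 0 to 1 members at 200 mg/kg and 24 h. Over all genes, calls at 200 mg/kg and 24 h numbered 966, but 0 with all 94 libraries, 1975 with array weights, 324 with only the groups compared, 389 without replicate 1 and 1538 without replicate 2 of that dose. At 100 mg/kg and 24 h they numbered 146, but 2, 187 and 9 under the first 3 of these, 260 against untreated tumors, 30 without replicate 3 and 290 without replicate 4. At 3-6 h, 9 calls at 200 mg/kg became 0 with all libraries or only the groups compared, 27 against vehicle cage group 3 and 4 to 27 without 1 library, and 56 at 100 mg/kg became 1, 21, and 32 to 82 without 1 library. No paired analysis was possible because replicate numbers follow the order of samples within a group and pair no tumors. Depth is unknown for FPKM, so that a value of 0 gives no upper limit, and changes of EGR3, below an FPKM of 1 in most tumors, are understated most.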
